A study of Mus musculus with 39 samples.

Results

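Hmgcs1, Pmvk, Idi1, Fdps, Sqle, Lss, Cyp51 and Insig1, genes of cholesterol synthesis and its control, were examined on 39 mouse liver arrays. A gene was taken where the array annotation gave at least 1 probe that symbol alone, and with several such probes the one with the highest mean over the 39 arrays was used. This left 6 of the 8 genes, out of 13840 genes on the array with such a probe. Fdps, the farnesyl diphosphate synthase, and Lss, the lanosterol synthase, had none and are only named. Although the set is called one of synthesis and uptake, its 8 genes are 7 enzymes of synthesis and 1 regulator, and none is itself a gene of cholesterol uptake.

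Livers came from adult males on a 129SV background that had been dosed by gavage on 7 consecutive days. Mice without the fatty-acid receptor PPARa (PPARa-null, called null here) received deionized water or 1 or 3 mg/kg of PFOA, the ammonium salt of perfluorooctanoic acid, and further null mice received 50 mg/kg of pirinixic acid, a synthetic PPARa agonist that the labels and the plots name by its Wy code, or its vehicle, 0.5% methylcellulose. Wild-type mice were treated in the same 5 ways. Each group holds 4 arrays, except wild type with methylcellulose, which holds 3. The study asked which responses of the liver to PFOA depend on PPARa and how they compare with those to pirinixic acid.

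The liver makes cholesterol from acetyl-CoA in a chain of enzymes. The first steps make mevalonate, the middle steps turn mevalonate into isoprenoid units that are joined into squalene, and the last steps close squalene into lanosterol and trim that to cholesterol. The genes of the chain share control by the SREBP transcription factors, which are held in the endoplasmic reticulum when sterols are plentiful and act in the nucleus when sterols are scarce. PPARa itself is best known for turning on genes of fatty acid oxidation in the same cells.

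The region before a gene's start is where SREBP and its partner factor NF-Y are known to bind, so the start regions of the 4 enzyme genes that rose with pirinixic acid in wild-type livers are shown here. Each runs from 250 bases before to 50 bases after an annotated start in RefSeq, build GRCm38.p6, 5′ to 3′ on the strand of the gene. Capitals mark CCAAT, the core letters of the NF-Y motif, or its reverse ATTGG, and TCACNCCAC, letters of a classical sterol element, or its reverse GTGGNGTGA. They lie at chr13:119690101-119690400 on the plus strand for Hmgcs1, chr3:89454291-89454590 plus for Pmvk, chr13:8885356-8885655 plus for Idi1 and chr5:4104648-4104947 minus for Cyp51.
Hmgcs1: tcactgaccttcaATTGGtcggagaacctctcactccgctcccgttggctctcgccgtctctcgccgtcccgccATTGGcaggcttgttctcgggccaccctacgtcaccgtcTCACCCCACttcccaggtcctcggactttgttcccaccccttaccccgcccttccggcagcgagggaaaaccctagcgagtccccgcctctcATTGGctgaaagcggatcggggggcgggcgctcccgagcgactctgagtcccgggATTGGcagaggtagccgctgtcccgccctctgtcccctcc
Pmvk: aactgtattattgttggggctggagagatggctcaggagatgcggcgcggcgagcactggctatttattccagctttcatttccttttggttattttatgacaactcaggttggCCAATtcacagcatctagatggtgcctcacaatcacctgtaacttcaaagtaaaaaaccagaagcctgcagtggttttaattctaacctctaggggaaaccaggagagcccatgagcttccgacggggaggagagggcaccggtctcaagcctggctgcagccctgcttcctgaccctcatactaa
Idi1: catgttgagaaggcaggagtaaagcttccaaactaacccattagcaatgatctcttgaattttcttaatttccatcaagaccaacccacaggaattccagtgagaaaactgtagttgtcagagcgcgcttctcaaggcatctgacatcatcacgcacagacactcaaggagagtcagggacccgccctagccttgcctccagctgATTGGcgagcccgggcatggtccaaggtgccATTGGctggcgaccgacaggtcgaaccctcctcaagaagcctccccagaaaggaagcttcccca
Cyp51: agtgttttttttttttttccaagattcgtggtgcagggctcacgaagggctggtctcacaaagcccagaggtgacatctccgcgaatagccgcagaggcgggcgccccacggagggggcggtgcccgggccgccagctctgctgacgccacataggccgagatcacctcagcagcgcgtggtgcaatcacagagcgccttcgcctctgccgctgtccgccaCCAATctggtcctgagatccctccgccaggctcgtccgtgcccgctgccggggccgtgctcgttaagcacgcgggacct

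CCAAT was found on either strand in the start regions of 5 of the 5 genes with such a region in the table, the last being Insig1. It was also found for 9 of 9 other synthesis genes with a region, against 37.4% of all 32851 start regions of the table. Hmgcs1 held it at 4 places and Idi1 at 2. Pmvk has a second annotated start region, and that one held no match. Of the 5 genes the letters TCACNCCAC were found in Hmgcs1 alone, as TCACCCCAC with its first base at -137 counted from the start. They were found in 0 of the 9 other synthesis genes, against 1.24% of all start regions. Only this spelling was searched, so a sterol element with other letters would be missed and may be present in these regions. The E-box CACGTG, which SREBP can also read and which is the same on both strands, was found in Insig1 alone of the 5, at -101, and in 3 of the 9 other synthesis genes, against 7.15% of all start regions. No match overlapped a match of another motif. A gene was counted where any of its start regions held a match, while the percentages count single start regions, so the measures are unlike. A match of letters is a description of the sequence and shows no binding.

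Signals are the deposited log2 values, and 25295 probes with a value on every array were tested together. Pearson r between arrays of 1 group lay between 0.928 and 0.974, with a median of 0.958. The hepatocyte markers were bright, with probe means of 17.7 to 20.7 for 5 of 8 listed genes. Replicate 3 of wild type with PFOA at 1 mg/kg went against its label: Cox6b2, a gene that separates the genotypes, measured 9.06 there, against 16.4 to 17.0 on the other 3 arrays of its group and 6.91 to 10.1 on the null arrays. Ehhadh, a PPARa target of peroxisomal fatty acid oxidation, measured 15.94 on that array, against 20.01 to 20.31 on the other 3 arrays of its group and 15.74 to 16.38 on the wild-type arrays with water. The array was kept under its label, and the tested differences that use its group, and the correlations between genes, are given with and without it. In addition, the arrays formed 2 sets of 16 and 23 that the labels do not record. All 4 arrays of wild type with pirinixic acid were in the larger set. The sets were drawn from the signals themselves, leaving out these genes and other genes of the pathway. Of the 120 probes with the widest gap between arrays, at least 8 arrays lying on each side, 81 shared this split. What divides the sets was not tested.

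All 6 genes were strongly expressed. Their means over the 39 arrays lay between 14.8 for Cyp51 and 17.7 for Insig1, above 89.9% and 97.7% of the tested probes. Wild type with methylcellulose had the lowest mean of the 10 groups for all 6 genes. Wild type with pirinixic acid had the highest for Hmgcs1, Pmvk, Idi1 and Cyp51, and ranked 5 of 10 for Sqle and Insig1. Sqle was highest in null mice with PFOA at 1 mg/kg and Insig1 in null mice with PFOA at 3 mg/kg. From the highest to the lowest group mean the distance was 2.64 on the log2 scale for Hmgcs1, 2.35 for Sqle, 1.69 for Pmvk, 1.64 for Idi1, 1.48 for Cyp51 and 1.07 for Insig1. Along each gene's order of 10 groups the arrays of neighbouring groups overlapped in 9 of 9 pairs, so no neighbouring pair stood apart beyond its spread. Animals of 1 group differed widely: the SD within a group reached 1.13 for Sqle and 1.04 for Hmgcs1, both in null mice with methylcellulose.

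**Figure D1:**
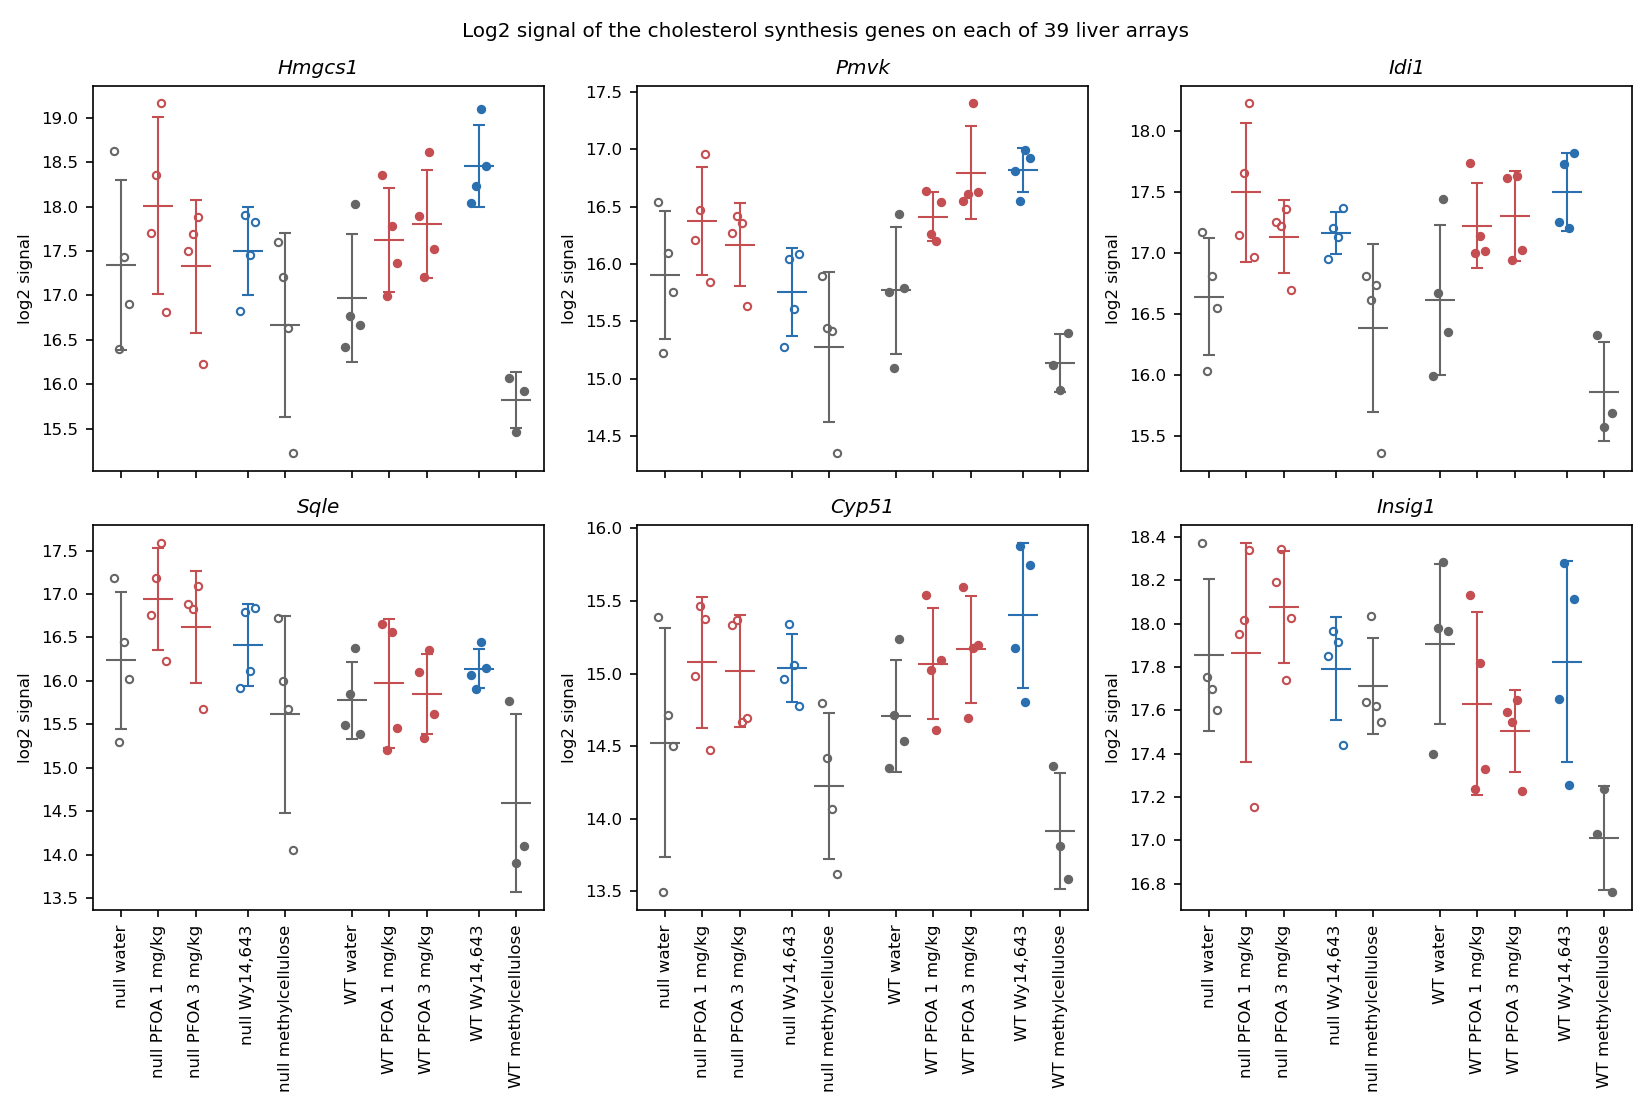
Log2 signal of each gene (vertical axis) on every array of the 10 groups (horizontal axis; filled circles wild type, open circles null), with the group mean as a horizontal line and the SD as a bar. The 3 arrays of wild type with methylcellulose have the lowest group mean in each panel, and the 4 arrays of wild type with pirinixic acid lie above these 3 in each panel.

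Pirinixic acid raised 4 of the 6 genes in wild-type livers, and all 4 are enzymes: Hmgcs1, Pmvk, Idi1 and Cyp51. Sqle and Insig1 were also higher, by an amount that missed the threshold. A gene is said to have risen or fallen where limma's adjusted p is under 0.05 over the 25295 probes. By that rule 6.1% of all probes changed in this comparison and 2.8% rose. The median difference of the 6 genes was 1.60, against -0.03 over all probes. In whole liver, more of a transcript per cell and more cells that carry it cannot be told apart.

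Hmgcs1, the cytosolic synthase that makes HMG-CoA at the head of the chain, measured 18.04, 18.23, 19.10 and 18.46 with pirinixic acid, against 16.07, 15.47 and 15.92 with methylcellulose. Every treated array lay above every vehicle array. It rose 6.22-fold (log2 difference 2.64 ± 0.55 SE, n = 4 against 3, limma adjusted p = 0.00317), more than the other 5 genes in this comparison by the estimate. Pmvk, the phosphomevalonate kinase, measured 16.82, 16.55, 16.99 and 16.93 with pirinixic acid, against 15.11, 14.90 and 15.39 with methylcellulose. The treated arrays were closely spaced and again lay above all vehicle arrays. Pmvk rose 3.22-fold (1.69 ± 0.33, adjusted p = 0.00186).

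Idi1, the isomerase that makes the allylic isoprenoid unit, measured 17.25, 17.73, 17.21 and 17.82 with pirinixic acid, against 16.33, 15.58 and 15.69 with methylcellulose, a rise of 3.11-fold (1.64 ± 0.34, adjusted p = 0.00333). A second Idi1 probe gave 16.52, 16.57, 16.22 and 17.19 with pirinixic acid, against 15.87, 14.75 and 15.30 with methylcellulose. Both probes separated the groups, and the second gave a smaller difference of 1.32 ± 0.38 (adjusted p = 0.0312). Cyp51, the lanosterol demethylase that begins the trimming of lanosterol, measured 15.17, 15.88, 14.80 and 15.75 with pirinixic acid, against 14.36, 13.81 and 13.59 with methylcellulose. It rose 2.79-fold (1.48 ± 0.35, adjusted p = 0.0089), and the gap between its lowest treated array and its highest vehicle array was the narrowest of the 4. Leaving out methylcellulose replicate 3 ended this call (1.31, adjusted p = 0.0614).

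Sqle, the squalene epoxidase, measured 16.07, 15.91, 16.44 and 16.15 with pirinixic acid, against 15.77, 13.90 and 14.10 with methylcellulose. Its treated arrays lay close together, while 1 vehicle array was near them and the other 2 far below. The difference was 1.55 ± 0.51 (adjusted p = 0.0638). Insig1, the endoplasmic reticulum protein that holds SREBP back when sterols are plentiful, measured 17.65, 18.28, 17.26 and 18.11 with pirinixic acid, against 17.03, 17.24 and 16.76 with methylcellulose. Its groups met almost end to end, and the difference was 0.82 ± 0.27 (adjusted p = 0.0618). On leaving out 1 array at a time the Sqle difference lay between 1.21 and 2.14 (adjusted p from 0.0243 to 0.257) and passed without methylcellulose replicate 1 alone. That of Insig1 lay between 0.66 and 1.00 (adjusted p from 0.0344 to 0.229) and passed without pirinixic acid replicate 3 alone. For all 6 genes every treated array was above every vehicle array, as held for 7.8% of all probes.

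Signals were lower with methylcellulose than with water by the estimate. In wild type, methylcellulose minus water was negative for all 6 genes, from -0.63 ± 0.33 for Pmvk to -1.19 ± 0.51 for Sqle (adjusted p from 0.541 to 0.596, n = 3 against 4). None of the 6 passed and neither did any other probe (0%), while 2191 probes had an unadjusted limma p under 0.05, 5 of these 6 genes among them. Insig1 measured 17.03, 17.24 and 16.76 with methylcellulose, against 17.40, 17.98, 18.28 and 17.97 with water. Its groups did not overlap, nor did those of Hmgcs1, and the other 4 genes' groups did; over all probes 3.52% were lower without overlap. The same difference in null mice was also negative for all 6 genes, from -0.15 to -0.67 (adjusted p from 0.427 to 0.841), with no probe past the threshold (0%) and 2931 at an unadjusted p under 0.05. The wild-type vehicle arrays enter both this difference and the one for pirinixic acid.

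With PFOA Pmvk alone of the 6 genes rose, at 3 mg/kg in wild type. In wild-type mice Pmvk measured 15.75, 15.09, 16.44 and 15.79 with water, 16.64, 16.26, 16.21 and 16.54 with PFOA at 1 mg/kg, and 16.55, 16.61, 17.40 and 16.63 at 3 mg/kg. The arrays at 3 mg/kg all lay above those with water, as held for 5.7% of all probes, and those at 1 mg/kg overlapped the highest water array. Pmvk at 3 mg/kg rose 2.04-fold over water (1.03 ± 0.31, n = 4 each, adjusted p = 0.0401), in a comparison where 5.82% of all probes changed and 3.37% rose. Leaving out a single array gave differences of 0.80 to 1.25 and ended it for 6 of the 8 arrays. It was also lost within each array set alone, at 0.82 (adjusted p = 0.417) in the smaller and 1.24 (adjusted p = 0.104) in the larger.

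Hmgcs1 measured 16.42, 16.77, 18.02 and 16.67 with water, 18.35, 17.00, 17.78 and 17.36 at 1 mg/kg, and 17.90, 17.20, 18.61 and 17.52 at 3 mg/kg in wild type. The water array at 18.02 overlapped both dosed groups. Its difference at 3 mg/kg was 0.84 ± 0.51 (adjusted p = 0.401). Idi1 measured 15.99, 16.67, 17.44 and 16.35 with water, 17.74, 17.00, 17.14 and 17.02 at 1 mg/kg, and 17.62, 16.95, 17.63 and 17.03 at 3 mg/kg. Here too 1 water array stood among the dosed ones, and the difference at 3 mg/kg was 0.69 ± 0.32 (adjusted p = 0.233). For Cyp51 it was 0.46 ± 0.32 and for Sqle 0.08 ± 0.47, while Insig1 was lower by the estimate (-0.40 ± 0.25), with adjusted p between 0.405 and 0.961. Insig1 averaged 17.50 ± 0.19 at 3 mg/kg and 17.91 ± 0.37 with water (SD, n = 4 each).

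At 1 mg/kg none of the 6 genes passed in wild type, where 0.273% of all probes did. The differences from water were 0.65 ± 0.51 for Hmgcs1, 0.64 ± 0.31 for Pmvk, 0.61 ± 0.32 for Idi1, 0.36 ± 0.32 for Cyp51, 0.19 ± 0.47 for Sqle and -0.28 ± 0.25 for Insig1, with adjusted p from 0.443 to 0.922. Without the array labelled replicate 3, which went against its label, they were 0.60, 0.71, 0.63, 0.51, -0.0034 and -0.34 in the same order of genes, and none passed, where 0.984% of all probes did. Between 3 and 1 mg/kg the 6 differences ran from -0.13 to 0.39 (adjusted p from 0.867 to 0.987), and every pair of groups overlapped. In that comparison 0.0277% of all probes passed. Without the array that went against its label the 6 differences ran from -0.06 to 0.32 (adjusted p = 1.000 for all), Cyp51 turning to -0.05 and Sqle to 0.08, and 0.00791% of all probes passed.

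In null mice none of the 6 genes passed in any comparison of treatment with vehicle. By the estimate all 6 were higher with pirinixic acid (median 0.79) and with PFOA at 1 mg/kg (median 0.61). With PFOA at 3 mg/kg 5 of the 6 were higher (median 0.32). With pirinixic acid Hmgcs1 measured 16.82, 17.91, 17.46 and 17.83, against 17.60, 17.21, 16.64 and 15.22 with methylcellulose. Of the 4 vehicle arrays 2 lay among the treated arrays and 2 below them all, and the difference was 0.84 ± 0.51. Idi1 measured 16.95, 17.21, 17.13 and 17.37 with pirinixic acid, against 16.81, 16.62, 16.74 and 15.36 with methylcellulose. Of the 6 genes it alone, by the probe used, had every treated array above every vehicle array, as held for 1.32% of all probes. Its difference by that probe was 0.78 ± 0.32. The second Idi1 probe lay at 16.15 to 17.13 with pirinixic acid and at 15.01 to 16.61 with methylcellulose, so its groups overlapped. It gave a difference of 0.85 ± 0.35. The other differences were 0.81 ± 0.32 for Cyp51, 0.80 ± 0.47 for Sqle, 0.48 ± 0.31 for Pmvk and 0.08 ± 0.25 for Insig1. By limma none of the 25295 probes passed in this comparison (0%) and 691 had an unadjusted p under 0.05, Idi1 and Cyp51 among them; the adjusted p was 1.000 for all 6 genes.

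With PFOA at 3 mg/kg the 6 null differences from water ran from -0.01 for Hmgcs1 to 0.49 for Idi1 (adjusted p from 0.726 to 0.997), where 0.3% of all probes passed. At 1 mg/kg they ran from 0.01 for Insig1 to 0.86 ± 0.32 for Idi1 (adjusted p = 1.000 for all), where 0.0119% passed. The second Idi1 probe gave smaller differences, of 0.03 ± 0.35 at 3 mg/kg and 0.44 ± 0.35 at 1 mg/kg. Null Idi1 measured 17.17, 16.03, 16.81 and 16.55 with water, 17.14, 17.65, 18.23 and 16.96 at 1 mg/kg, and 17.26, 17.22, 17.36 and 16.69 at 3 mg/kg. The middle dose was the highest by its mean, and the 3 groups overlapped. At 3 minus 1 mg/kg the 6 null differences ran from -0.68 to 0.21, and 0.00791% of all probes passed, none of them a probe of these genes.

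**Figure D2:**
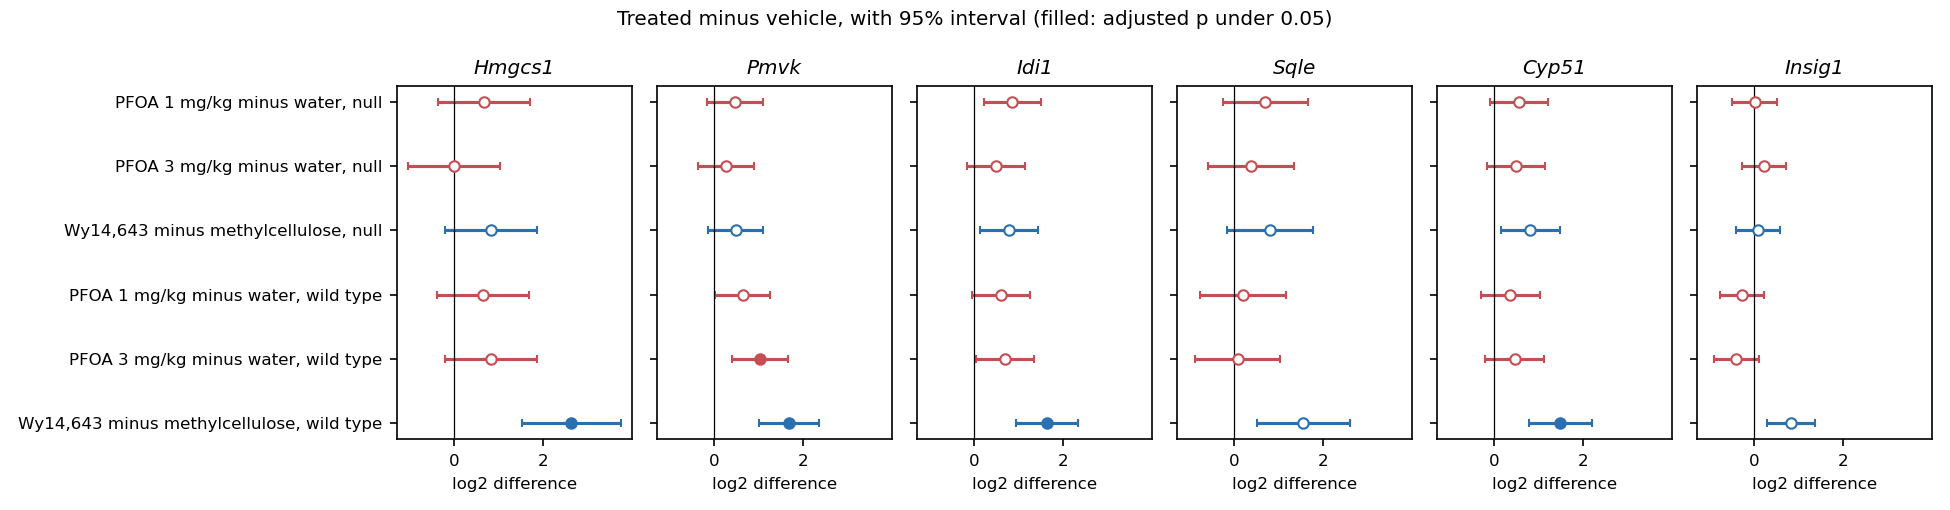
Log2 difference from vehicle (horizontal axis) of each gene in its own panel, for the 6 comparisons of treatment with vehicle (rows), with 95% intervals of the limma fit; filled points have an adjusted p under 0.05. The filled points are Hmgcs1, Pmvk, Idi1 and Cyp51 with pirinixic acid and Pmvk with PFOA at 3 mg/kg, all in wild type.

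A call in wild type and none in null mice does not show that the genotypes differ, so the responses themselves were compared. The null response to pirinixic acid minus the wild-type response was negative for all 6 genes, and none passed, against 1.24% of all probes. It was -1.80 ± 0.75 for Hmgcs1 (adjusted p = 0.233), -1.21 ± 0.45 for Pmvk (adjusted p = 0.177), -0.86 ± 0.47 for Idi1, -0.75 ± 0.70 for Sqle, -0.73 ± 0.36 for Insig1 and -0.67 ± 0.48 for Cyp51. The 95% intervals of Hmgcs1, from -3.32 to -0.28, and of Pmvk, from -2.12 to -0.29, lay below 0 before adjustment. For PFOA at 3 mg/kg the 6 differences ran from -0.85 ± 0.72 for Hmgcs1 to 0.62 ± 0.35 for Insig1 (adjusted p from 0.525 to 0.987), and 0.415% of all probes passed. Pmvk, which rose in wild type, gave -0.76 ± 0.43 (95% interval -1.64 to 0.12, adjusted p = 0.53). For PFOA at 1 mg/kg they ran from -0.17 to 0.51 (adjusted p from 0.942 to 0.999), and 0% of all probes passed by limma, with 1274 at an unadjusted p under 0.05. Without the array that went against its label they ran from -0.24 for Pmvk to 0.71 for Sqle (adjusted p from 0.935 to 0.998), and 0.162% of all probes passed.

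The response to PFOA at 3 mg/kg was also set against that to 50 mg/kg of pirinixic acid, a comparison of compounds whose doses and vehicles differ. In wild type the PFOA response was smaller by the estimate for all 6 genes, from -0.66 ± 0.45 for Pmvk to -1.80 ± 0.75 for Hmgcs1 (adjusted p from 0.241 to 0.556). None passed, against 0.0119% of all probes. Set side by side with no test, since vehicles differ, Hmgcs1 averaged 18.46 ± 0.46 with pirinixic acid and 17.81 ± 0.61 with PFOA at 3 mg/kg, and Pmvk 16.82 ± 0.19 with pirinixic acid and 16.80 ± 0.40 with PFOA (SD, n = 4 each). The means with treatment were thus closer than the responses, and the vehicles averaged 15.82 ± 0.31 with methylcellulose (n = 3) and 16.97 ± 0.72 with water (n = 4) for Hmgcs1. In null mice the 6 differences of response ran from -0.85 to 0.14 (adjusted p from 0.955 to 0.98), and 0.0474% of all probes passed.

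None of the 6 genes passed between genotypes in either vehicle. On water the null-minus-wild-type differences ran from -0.18 for Cyp51 to 0.46 for Sqle (adjusted p from 0.748 to 0.986), and all groups overlapped; 0.127% of all probes passed. On methylcellulose all 6 were positive, from 0.14 ± 0.33 for Pmvk to 1.02 ± 0.51 for Sqle (adjusted p from 0.27 to 0.913), and 0.186% of all probes passed. Insig1 measured 17.64, 18.04, 17.62 and 17.55 in null mice with methylcellulose, against 17.03, 17.24 and 16.76 in wild type. Of the 6 genes it alone had every null array above every wild-type array there, against 5.5% of all probes, and its difference was 0.70 ± 0.27 (adjusted p = 0.27).

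The neighbouring genes of the pathway were read from a list of 36, of which 24 had a tested single-symbol probe. With pirinixic acid in wild type 6 of the 24 rose and 0 fell, where 2.8% of all probes rose and 6.1% changed. All 6 belong to the 10 tested genes listed under synthesis, a class that includes Acss2, which makes acetyl-CoA ahead of the chain. Mvd, which makes isopentenyl diphosphate, averaged 14.05 ± 0.40 with pirinixic acid (SD, n = 4) and 11.98 ± 0.52 with methylcellulose (n = 3), a difference of 2.06 ± 0.51 SE (adjusted p = 0.0133). Acss2, the cytosolic acetyl-CoA synthetase, averaged 15.65 ± 0.31 and rose by 1.74 ± 0.45 (adjusted p = 0.017). The sterol methyl oxidase Msmo1 (1.61 ± 0.44, adjusted p = 0.0242), the squalene synthase Fdft1 (1.18 ± 0.32, adjusted p = 0.0214), the sterol desaturase Sc5d (1.05 ± 0.25, adjusted p = 0.00998) and the sterol reductase Tm7sf2 (0.68 ± 0.18, adjusted p = 0.021) rose as well. The median difference was 1.08 over the 10 synthesis genes and 0.28 over all 24.

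None of the 4 genes of SREBP control passed in that comparison, with Insig2 closest at 1.21 ± 0.39 (adjusted p = 0.0569). None of the 6 genes of uptake and transfer passed either, and their median was -0.23; Mylip, a ubiquitin ligase, gave -0.72 ± 0.24 (adjusted p = 0.0723). None of the 4 genes of storage and efflux passed.

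With PFOA at 3 mg/kg in wild type 1 of the 24 rose and 0 fell, a share near that of all probes, of which 3.37% rose and 5.82% changed. Acss2 averaged 16.10 ± 0.47 at 3 mg/kg and 14.55 ± 0.88 with water (SD, n = 4 each), a difference of 1.54 ± 0.42 SE (adjusted p = 0.0225). Tm7sf2 (0.43 ± 0.17, adjusted p = 0.138) and Hsd17b7, which reduces a sterol ketone (0.67 ± 0.32, adjusted p = 0.258), did not pass, nor did Npc2, which carries cholesterol out of lysosomes (-0.34 ± 0.15, adjusted p = 0.227). All 6 genes of uptake and transfer were lower by the estimate with a median of -0.31, none passing, and the median was 0.39 over the 10 synthesis genes and 0.05 over all 24. At 1 mg/kg none of the 24 passed, with Tm7sf2 at 0.53 ± 0.17 (adjusted p = 0.225), Acss2 at 1.07 ± 0.42 (adjusted p = 0.34), Srebf1 at -0.52 ± 0.25 and Npc2 at -0.26 ± 0.15 nearest the threshold. Without the array that went against its label none of the 24 passed either, with Tm7sf2 at 0.49 (adjusted p = 0.283), Acss2 at 1.17 (adjusted p = 0.32), Srebf1 at -0.38 and Npc2 at -0.20. None of the 24 passed in the null comparisons of treatment with vehicle or in the comparisons of responses between genotypes. By the estimate most of the 10 synthesis genes were higher with treatment in null mice too. The median was 0.17 with PFOA at 3 mg/kg (7 of 10 positive) and 0.39 with pirinixic acid (10 of 10 positive). At 1 mg/kg it was 0.40 in null mice and 0.38 in wild type (9 of 10 positive in each). In null mice with pirinixic acid the 6 genes that rose in wild type had differences from 0.12 for Sc5d to 0.69 for Mvd.

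**Figure D3:**
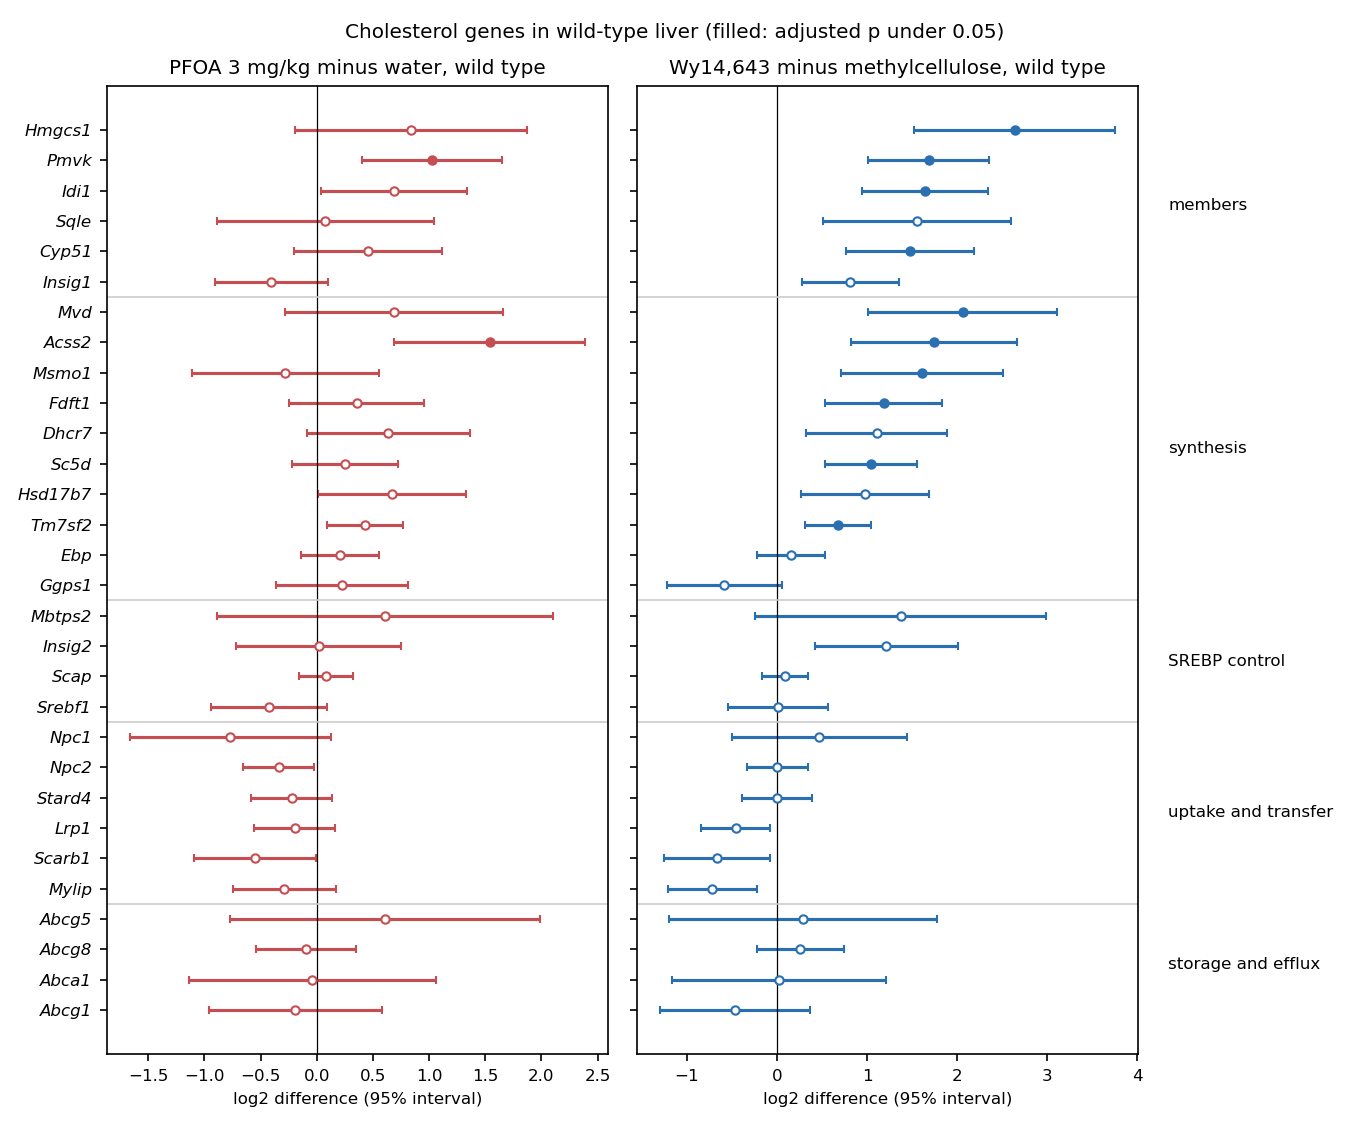
Log2 difference with its 95% interval (horizontal axis) for the 6 genes and the 24 other pathway genes (rows, by class) in wild type, left for PFOA at 3 mg/kg minus water and right for pirinixic acid minus methylcellulose; filled points have an adjusted p under 0.05. Every filled point is an enzyme among the 6 genes or in the class listed as synthesis, 10 of them on the right and 2 on the left. That class includes Acss2, filled on both sides, which makes acetyl-CoA ahead of the chain.

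Animals of the same group varied together in these genes. Over the 39 arrays Pearson r between 2 of the 6 genes lay between 0.27 for Pmvk with Insig1 and 0.91 for Hmgcs1 with Idi1, with a median of 0.76 over the 15 pairs. With the group means taken away it lay between 0.29 and 0.89, with a median of 0.65, so the genes also moved together among animals treated alike. Without the array that went against its label the medians were 0.76 and 0.71 over the other 38 arrays. These values are a description: the points share arrays, labelling and the authors' normalization. 1 array was highest of its group for all 6 genes in null mice with water (replicate 1), in wild type with water (replicate 3) and in wild type with PFOA at 1 mg/kg (replicate 1). 1 array was lowest for all 6 in null mice with PFOA at 1 mg/kg (replicate 4) and in null mice with methylcellulose (replicate 4). The last measured 15.22 for Hmgcs1, against 16.64 to 17.60 on the other 3 arrays of its group.

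**Figure D4:**
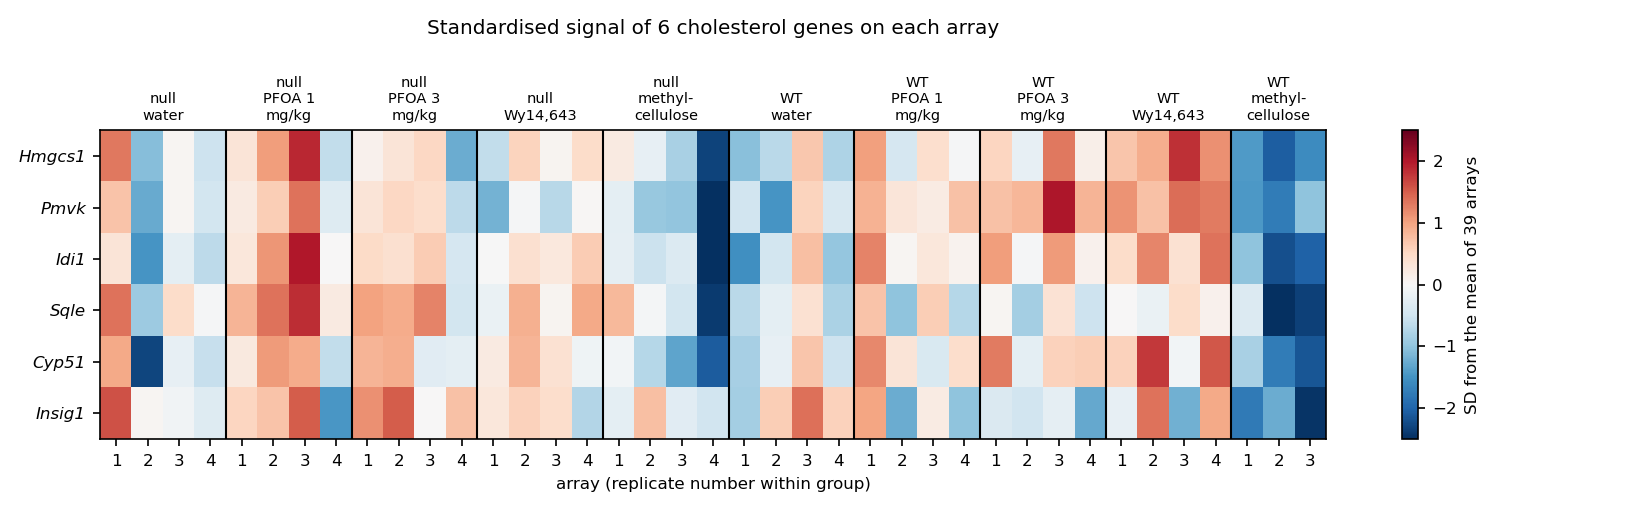
Signal of each gene (rows) on each array (columns, numbered by replicate within a group), as SDs from the gene's own mean over the 39 arrays; red is above and blue below. Single columns are red or blue throughout, as in null water replicate 1 and null methylcellulose replicate 4, and the 3 columns of wild type with methylcellulose are blue.

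The genes whose pattern was most like that of the 6 were sought among 12022 single-symbol probes by Pearson r with the mean of the 6 standardised values over the 39 arrays. Fdft1 came first (r = 0.961), then Mvd (0.929), Sc5d (0.886), Rdh11 (0.870), Msmo1 (0.854) and Dhcr7 (0.851), the last enzyme of cholesterol synthesis. With group means taken away their r was 0.954, 0.900, 0.849, 0.839, 0.896 and 0.833 in the same order. Rdh11, a retinol dehydrogenase, alone among these was not on the pathway list. The same 6 genes came first in the same order over the 38 arrays without the one that went against its label. Of the 10 most alike, 7 were probes of the pathway list, which has 26 probes among the 12022.

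Markers of other liver cells moved with pirinixic acid in wild type. Of 8 Kupffer cell markers 4 fell and 0 rose, where 6.1% of all probes changed, and the mean signal over the 8 lay at 12.09 to 12.35 with pirinixic acid, against 12.60 to 12.95 with methylcellulose, so the groups did not overlap. Of 6 endothelial markers 2 fell, of 5 hepatocyte markers 1 fell and of 2 red blood cell markers 1 fell, while none of the stellate cell, cholangiocyte, lymphocyte, adipocyte or pancreas acinar markers passed. The hepatocyte mean lay at 19.40 to 19.93 with pirinixic acid, against 19.67 to 20.41 with methylcellulose. With PFOA at 3 mg/kg in wild type 1 of 8 Kupffer cell, 1 of 5 hepatocyte, 1 of 4 stellate cell and 2 of 6 endothelial markers fell, and 1 endothelial marker rose, where 5.82% of all probes changed. The log2 scale gives no marker a value of 0. A mean over 583 probes of genes that liver does not use, such as odorant receptors (the silent-gene index), was higher by 0.154 with pirinixic acid than with methylcellulose in wild type (two-sided exact permutation p = 0.143; 4 arrays against 3 allow no p under 0.0286). The part of these markers, of that index and of the array sets in the rise of the cholesterol genes was not tested. With the index in the fit Hmgcs1, Pmvk, Idi1 and Cyp51 kept their calls with pirinixic acid. The Pmvk call with PFOA at 3 mg/kg was lost there (0.79, limma adjusted p = 0.151). Within the larger array set the 4 genes gave 2.76, 1.68, 1.87 and 1.70 with pirinixic acid (adjusted p from 0.0314 to 0.0463). That fit held 4 arrays against 2, as methylcellulose replicate 1 was in the smaller set. Leaving out that array alone gave the same differences.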

How the data were processed

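The authors deposited 1 table of log2 signals for 33012 probes on 39 arrays, made from digoxigenin-labelled cRNA per the labels' protocols; the base is taken as 2 from the range of 4.85 to 21.55. All arrays had a median of 9.136. The labels do not say how they were scanned, corrected for background and normalized, and 1.15% of values were missing. Probes were named through the platform annotation: 14411 had 1 gene symbol, 247 several and 18354 none.

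The values were used without further normalization. limma 3.58.1 in R 4.3.3 was fitted to all 39 arrays with 1 mean per group (29 residual and 2.51 prior degrees of freedom), and 17 differences were tested, two-sided, with Benjamini-Hochberg adjustment over the 25295 complete probes of each. The number of arrays limits the precision. The labels give 4 animals per group, and 3 arrays of wild type with methylcellulose were analysed here. The scripts were tested on simulated data.

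The genes, the pathway list, the marker lists and the tests were chosen with earlier results of these data known. Pathway genes are named where they passed, with up to 4 of the smallest adjusted p in each wild-type comparison of treatment with vehicle, and the 6 probes most alike are named. The alternatives were the replicate number or array set as a block, the silent-gene index as a covariate, array weights, cyclic loess, a filter on dim probes, probes with missing values, the compared groups only, the second Idi1 probe, and leaving out each array. Fits within 1 array set, and the pathway and correlation values without the array that went against its label, were added after seeing the data. Replicate numbers were checked for pairing: same-numbered arrays correlated over 0.1 in every pair only between PFOA 3 and 1 mg/kg (deviations from group means, r of 0.134 to 0.31 in wild type and 0.105 to 0.188 in null), so the block is not part of the main design. Start regions come from RefSeq tables of GRCm38.p6.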

Additional observations from a re-analysis of the deposited data

Results flagged for a closer look

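In 54 sets of 4 arrays (6 genes in 9 groups) the highest and lowest array were compared with the rest, a check that flags about 1 group in 20 by chance. A sample stood far from the others in 2 of them, which is no more than that rate would give. Idi1 on the array of null methylcellulose replicate 4 measured 15.36, against 16.62 to 16.81 on the other 3, and that array was the lowest of its group for all 6 genes. Pmvk on the array of wild type with PFOA at 3 mg/kg, replicate 3, measured 17.40, against 16.55 to 16.63 on the other 3; without it the Pmvk difference from water was 0.83 (limma adjusted p = 0.183).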

How the results depend on the processing

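The 5 calls of the 6 genes were each recomputed under the alternatives. Of the 83 recomputations in all, 68 kept the call, 15 lost it and 0 reversed it. Pmvk with PFOA at 3 mg/kg in wild type kept its call in 2 of the 8 fits leaving out 1 array. It kept the call in 4 of its 10 other alternatives. With pirinixic acid in wild type, Hmgcs1 and Pmvk kept their calls throughout (2.42 to 2.84 and 1.57 to 1.90), Idi1 lost it with the compared groups only (adjusted p = 0.0804), and Cyp51 lost it there (adjusted p = 0.13) and without methylcellulose replicate 3. The number of the 6 genes that rose was 4. It was 2 with the compared groups only, 5 with the silent-gene index, 6 with array weights, brighter probes only or the replicate block (for arrays that share only a number; Sqle adjusted p = 0.0193, Insig1 0.0339), and 3 to 5 on leaving out 1 array. With PFOA at 3 mg/kg in wild type the number was 1 and became 0 with the silent-gene index (Pmvk 0.79, adjusted p = 0.151), array weights (0.94, adjusted p = 0.0616), probes with missing values (adjusted p = 0.0552), the compared groups only (adjusted p = 0.202) and within the smaller and the larger array set; leaving out 1 array gave 0 to 1. For PFOA at 3 mg/kg set against pirinixic acid by their responses in wild type, genes past the threshold in either direction were counted. Their number was 0, and 1 with array weights (Insig1, lower by the estimate at -1.54, limma adjusted p = 0.0338). The replicate block changed no call in the comparisons of PFOA at 3 and 1 mg/kg. Over all probes, 1542 changed with pirinixic acid in wild type, and 70 with the compared groups only, 249 within the larger set, 3225 with array weights and 797 to 2399 on leaving out 1 array; for PFOA at 3 mg/kg 1473 changed, and 441 with the compared groups only, 262 within the smaller set and 825 without treated replicate 3. The causes were not tested. The compared-group and within-set fits also held fewer arrays.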
